A study of Mus musculus with 25 samples.

Results

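Genes of MHC class I antigen presentation were followed in cultured mouse astrocytes: the heavy chain genes H2-D1 and H2-K1, the light chain gene B2m, the transporter genes Tap1 and Tap2, the loading gene Tapbp, the immunoproteasome genes Psmb8 and Psmb9, and the transcription factor gene Irf1. They were taken by symbol from a table of 54429 genes, and 9 of 9 were found. All cells were astrocytes from the cortex of C57BL/6J mice, immunopanned with an antibody to the surface protein HepaCAM, and no group carried an engineered allele. There were 25 libraries in 9 groups. An EGFR inhibitor and its DMSO control had 3 libraries each, and a P53 inhibitor and a separate DMSO control also had 3 each. Both inhibitors were added on day 2 in vitro. Cells grown with HBEGF, a ligand of the EGF receptor, and cells from which HBEGF was withdrawn, both on the day of preparation, gave 2 libraries each. Untreated cells were taken at day 2, day 7 and day 14 in vitro, with 3 libraries for each day. Inhibitor names and doses, the day of harvest after treatment, the animals' age and the origin of the replicates (not given in the sources used here) limit the design, and a p-value here reflects spread between libraries that may be only technical.

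MHC class I molecules display peptides from the inside of a cell to CD8+ T cells. The proteasome cuts proteins into peptides, the TAP1-TAP2 transporter carries them into the endoplasmic reticulum, tapasin (Tapbp) bridges the transporter to empty heavy chains, and the heavy chain reaches the cell surface with beta-2-microglobulin (B2m) and a peptide. Interferons raise the whole pathway through factors such as IRF1, which the immunoproteasome genes are known to need, and in the healthy brain glia express it at low levels.

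Depth was 4011134 to 9694976 recovered reads per library (median 6109327), and 8903 to 9865 genes had at least 1 RPKM (reads scaled to library size and gene length, here the length of the whole gene span). Summed over 12 astrocyte markers, the level was 90.1 to 438 RPKM in every library. Mitochondrial ribosomal RNA made up 12.3 to 29.8% of the reads, with 22.3 to 25.4% under the EGFR inhibitor against 18.4 to 18.8% in its control, and 27.96 to 29.8% after HBEGF withdrawal against 17.2 to 18.2% with HBEGF. On the log2(RPKM + 1) scale used for the tests, well-expressed genes (mean of 5 RPKM or more) had a median change of -0.33 under the EGFR inhibitor and -0.45 after withdrawal. Median-of-ratios scaling of the libraries brought these to -0.22 and -0.22. In whole-culture RNA, fewer cells of a type and less RNA per cell cannot be told apart.

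On the GRCm38 build (GENCODE M21), 7 of the 9 genes lie on chromosome 17. Windows of 250 bases before the RefSeq transcription start (GRCm38.p6) were matched for 8 of 9 genes, with no entry for Tap2. The RefSeq start is not always the start of the GENCODE gene. The windows of H2-D1, Tapbp, Psmb8 and Psmb9 lie inside the gene spans given here. The stretch shown first is the one that the heavy chain genes share, because these genes differed in their response. It runs from a match to the NF-kB consensus to an interferon regulatory factor (IRF) element, both in capitals, at chr17:35262923-35262952 (plus strand) for H2-D1 and chr17:34000429-34000458 (minus strand) for H2-K1.
H2-D1: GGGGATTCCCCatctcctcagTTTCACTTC
H2-K1: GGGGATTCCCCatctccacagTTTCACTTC
With positions counted from 1 at the 5′ end and the H2-D1 base first, the only substitution is T18A, which lies between the 2 elements. Over the 190 bases that could be aligned, the windows were 87.9% identical.

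The windows of H2-K1 (chr17:34000348-34000597, minus strand), B2m (chr2:122147437-122147685, plus strand) and Irf1 (chr11:53769764-53770013, plus strand) are shown because these genes responded in opposite directions to the EGFR inhibitor. That of B2m is shown without its last base, as 249 bases. Capitals mark matches to the IRF element, the interferon-gamma activated site (GAS) and the NF-kB consensus.
H2-K1: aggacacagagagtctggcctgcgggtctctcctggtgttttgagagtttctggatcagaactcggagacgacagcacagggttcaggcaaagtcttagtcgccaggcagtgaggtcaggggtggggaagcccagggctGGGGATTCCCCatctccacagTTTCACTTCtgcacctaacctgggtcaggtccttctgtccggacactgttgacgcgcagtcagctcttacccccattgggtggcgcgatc
B2m: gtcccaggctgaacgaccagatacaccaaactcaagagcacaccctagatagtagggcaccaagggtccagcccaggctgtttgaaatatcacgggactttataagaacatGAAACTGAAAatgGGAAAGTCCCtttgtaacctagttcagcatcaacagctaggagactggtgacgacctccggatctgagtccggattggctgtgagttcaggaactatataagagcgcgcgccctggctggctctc
Irf1: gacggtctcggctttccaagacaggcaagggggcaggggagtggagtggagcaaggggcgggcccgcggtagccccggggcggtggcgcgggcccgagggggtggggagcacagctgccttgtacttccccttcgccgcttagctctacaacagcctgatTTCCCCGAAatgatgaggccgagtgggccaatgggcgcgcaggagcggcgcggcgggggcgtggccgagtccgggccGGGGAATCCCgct
Both strands were searched for GAANNGAAA, also with a further A before the N bases (IRF element), TTCNNNGAA (GAS) and the NF-kB consensus. In the heavy chain genes, the NF-kB consensus matches in 2 frames that overlap each other. The IRF element was in the windows of H2-D1, H2-K1 and B2m (3 of 8 genes) and in 8.82% of all 32851 windows, the GAS in those of Irf1 and Psmb8 (7.02% of all windows) and the NF-kB consensus in those of H2-D1, H2-K1, B2m and Irf1 (7.25%). None of these matches was found in the windows of Tap1, Tapbp or Psmb9. Those of Tapbp and Psmb9 lie inside the GENCODE span, so the sequence before that span was not searched for them. A match describes the sequence and does not show that a factor binds there.

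Levels differed widely between the genes. In reads scaled to library size and exon length, a scale that allows comparison between genes, B2m had a mean of 112 ± 27.5 (SD over the 25 libraries), H2-K1 16.3 ± 6.38 and H2-D1 7.46 ± 3.05. Tapbp followed with 3.67 ± 2.49 and Irf1 with 1.42 ± 0.667. The transporter and immunoproteasome genes were lowest, at 0.543 ± 0.390 for Tap1, 0.324 ± 0.202 for Tap2, 0.192 ± 0.244 for Psmb9 and 0.115 ± 0.0934 for Psmb8.

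Only 5 of the 9 genes passed the filter for testing, 1 RPKM or more in 2 or more libraries. H2-D1, H2-K1 and B2m passed it in all 25 libraries. Irf1 passed through 5 libraries, all with the EGFR inhibitor or without HBEGF, and Tapbp through these and 1 library of day 7. Both were thus admitted by the groups in which they were high, so the counts that follow do not measure how often the pathway responded. Tap1, Tap2, Psmb8 and Psmb9 stayed below the filter.

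**Figure D1:**
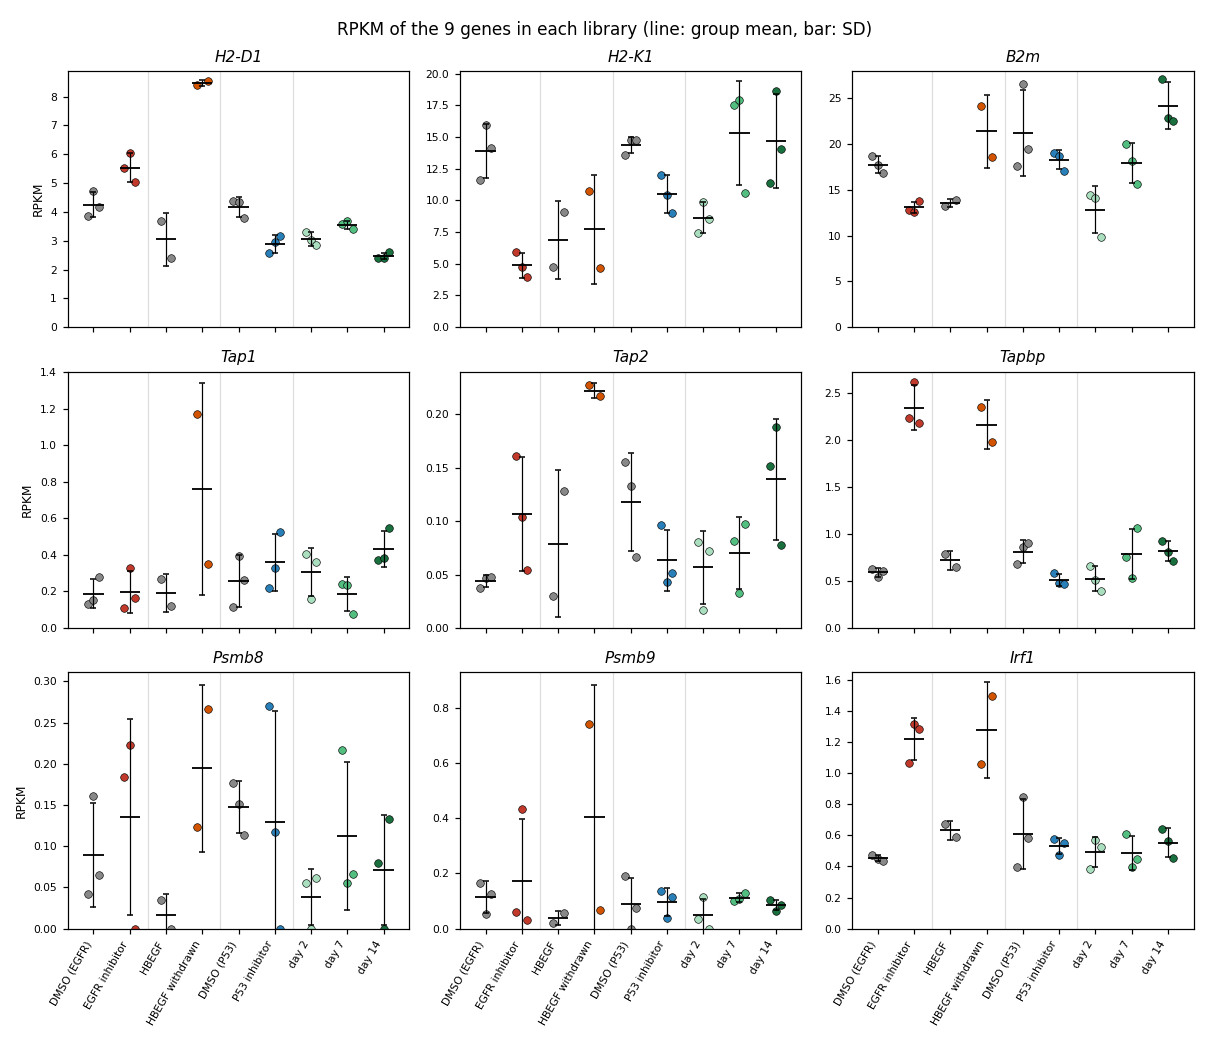
RPKM (per kilobase of gene span, linear axes from 0) of the 9 genes in each library, with replicates 1 to 3 from left to right, the group mean as a line and the SD as a bar (n = 2 or 3, cut off at 0). Tapbp and Irf1 stand highest in the EGFR inhibitor and HBEGF withdrawal groups, H2-D1 is highest after withdrawal, and H2-K1 is lowest with the EGFR inhibitor.

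With the EGFR inhibitor, Tapbp, Irf1 and H2-D1 rose while H2-K1 and B2m fell. After HBEGF withdrawal, H2-D1, Tapbp, B2m and Irf1 rose and H2-K1 did not pass the test. By limma on log2(RPKM + 1), with p adjusted by Benjamini and Hochberg over 13850 genes and called under 0.05, the inhibitor gave 3 higher and 2 lower of the 5 tested genes, where 16.3% of all tested genes were higher and 22.2% lower. Withdrawal gave 4 higher and 0 lower, where 10.0% of all tested genes were higher and 22.5% lower. The median change of the 5 genes was 0.32 and 0.61, beside -0.02 and -0.10 over all tested genes. These medians are the change of H2-D1 with the inhibitor and of B2m after withdrawal. As Irf1 and Tapbp were admitted by these groups, the medians do not measure the pathway's response either. Control and treated libraries did not overlap for the 5 genes with the inhibitor (21.6% of all tested genes lay higher and 28.7% lower without overlap), nor for 4 of 5 after withdrawal (19.8% and 37.1%).

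The heavy chain gene H2-D1 (ENSMUSG00000073411.11, chr17:35262730-35267499) stood at 3.84, 4.72 and 4.18 RPKM in the EGFR control libraries and at 5.51, 6.04 and 5.05 with the inhibitor. The 2 groups did not overlap, but the distance between their nearest libraries was small. The rise was 1.30-fold, a log2 change of 0.32 ± 0.10 (SE) with a limma adjusted p of 0.0181. It was no longer called without replicate 1 of the control (adjusted p = 0.0860) or replicate 2 of the inhibitor (adjusted p = 0.0827).

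With HBEGF, H2-D1 was at 3.69 and 2.40 RPKM, and after its withdrawal at 8.40 and 8.54. The withdrawal libraries were the highest of the whole series for this gene and lay close together. This 2.78-fold rise (log2 change 1.25 ± 0.12, limma adjusted p = 1.3e-06) was called in 4 of 4 fits that left out a library of the comparison, where 1 group keeps a single library, assumed to vary like the other groups. With the 4 libraries of the HBEGF experiment fitted alone it was not called (adjusted p = 0.0847). The 2 treatments, which both lower EGF receptor signalling, differed in their effect on H2-D1: the inhibitor's log2 change was 0.93 ± 0.16 below that of withdrawal (limma adjusted p = 0.00565), a difference called in 10 of 10 fits without 1 library. The difference between treatments was called for 2 of the 5 genes, both with the lower change under the inhibitor, where it was lower for 0.556% of all tested genes and higher for 1.27%.

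H2-K1 (ENSMUSG00000061232.16, chr17:33996017-34000347), the other classical heavy chain of this strain, fell with the EGFR inhibitor, where H2-D1 rose. In the EGFR control libraries it was at 11.6, 16.0 and 14.1 RPKM, and with the inhibitor at 5.93, 4.75 and 3.98. Every inhibitor library was below every control library. The level was 2.85-fold lower (log2 change -1.34 ± 0.26, limma adjusted p = 0.000506), and the call held in 6 of 6 fits without 1 library of the comparison.

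Withdrawal of HBEGF left H2-K1 at 10.8 and 4.70 RPKM, against 4.73 and 9.06 with HBEGF. The groups overlapped completely, with replicates in opposite order, and the log2 change was 0.11 ± 0.32 (limma adjusted p = 0.856). The difference of this gene's response between the treatments, -1.45 ± 0.41, missed the threshold (limma adjusted p = 0.0782). Sequences of 50 bases shared with other genes made up 12.8% of those of H2-D1 and 9.63% of those of H2-K1, mostly shared with each other and with H2-Q genes, so part of their reads is uncertain.

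The other heavy chain genes of the H2-Q, H2-T and H2-M families were barely measured. Of 18 listed, 16 were in the table and 1 was tested, H2-T24, which passed in no comparison. H2-Q7 was listed at 0.0324 to 0.855 RPKM and H2-T22 at 0.177 to 1.11 RPKM over the libraries. Among class I-like genes, which use related heavy chains for other ligands, Mr1, which presents vitamin metabolites, rose with the inhibitor (0.928 ± 0.193 against 0.288 ± 0.169 RPKM, SD) and after withdrawal (0.727 ± 0.0788 against 0.152 ± 0.0102 RPKM). Cd1d1, which presents lipids, rose with the inhibitor (4.06 ± 0.751 against 2.12 ± 0.319 RPKM) and fell after withdrawal (0.579 ± 0.0388 against 1.37 ± 0.135 RPKM), although the fall was not called under median-of-ratios scaling (limma adjusted p = 0.0632). Hfe, an iron regulator that pairs with B2m, rose after withdrawal (1.58 ± 0.194 against 0.453 ± 0.146 RPKM). Its withdrawal libraries were enough by themselves to pass the filter for testing, so the filter favoured such a rise.

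B2m (ENSMUSG00000060802.8, chr2:122147686-122153083) encodes the light chain that every class I molecule needs. The gene overlaps Patl2 on the opposite strand, with which its reads may mix. It was at 18.7, 17.7 and 16.9 RPKM in the EGFR control libraries and at 12.9, 12.6 and 13.8 with the inhibitor. The groups did not overlap, and the fall was 1.36-fold (log2 change -0.41 ± 0.15, limma adjusted p = 0.0341). This fall lay near the median of well-expressed genes. It was not called under median-of-ratios scaling (-0.30, adjusted p = 0.111), and it was lost in 5 of 6 fits without 1 library, all but that without inhibitor replicate 3, with adjusted p from 0.0508 to 0.101.

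HBEGF libraries held B2m at 13.2 and 13.9 RPKM, and withdrawal libraries at 24.2 and 18.6. Both withdrawal libraries were above both HBEGF libraries, replicate 1 the more so. The rise was 1.58-fold (log2 change 0.61 ± 0.18, limma adjusted p = 0.0147), and it was kept only without withdrawal replicate 2, the other 3 of 4 such fits giving adjusted p up to 0.155. Between the treatments the changes differed by -1.02 ± 0.23 (limma adjusted p = 0.0313), lost in 8 of 10 fits without 1 library (adjusted p up to 0.123) and with the replicate number as a block (adjusted p = 0.0518).

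**Figure D2:**
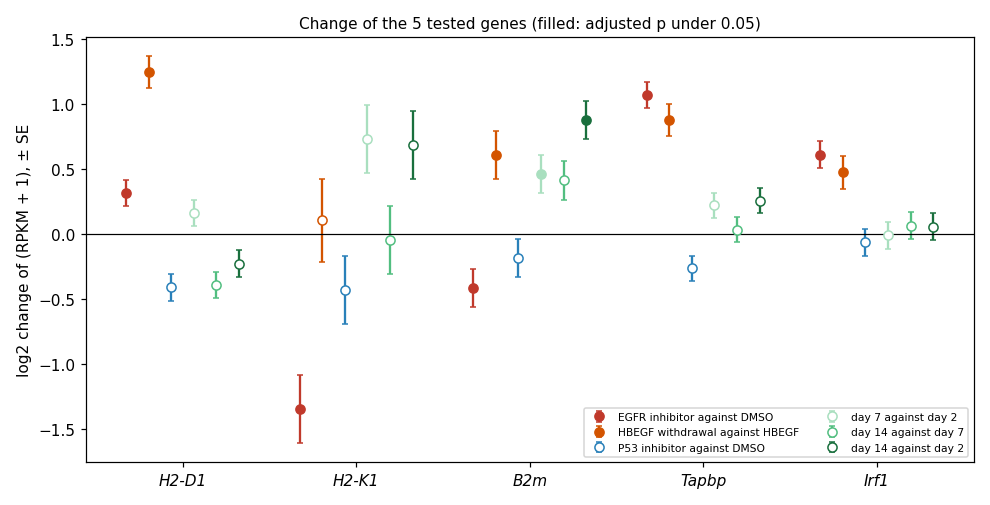
Log2 change of RPKM + 1 ± SE from limma for the 5 tested genes in 6 comparisons, coloured by comparison, with filled points where the adjusted p was under 0.05. H2-K1 falls by 1.34 with the EGFR inhibitor while H2-D1 rises by 1.25 after HBEGF withdrawal, and Tapbp and Irf1 rise in both treatments and have no filled point elsewhere.

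Tapbp (ENSMUSG00000024308.15, chr17:33915899-33929292) had the smallest adjusted p of the 5 tested genes under the inhibitor. It was at 0.625, 0.538 and 0.608 RPKM in the EGFR control libraries and at 2.23, 2.61 and 2.17 with the inhibitor. The groups lay far apart compared with the spread inside them. The rise was 3.96-fold (log2 change 1.07 ± 0.10, limma adjusted p = 3.27e-07).

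After withdrawal, Tapbp rose from 0.787 and 0.648 RPKM to 2.34 and 1.97. These groups were apart as well, with a 3.01-fold rise (log2 change 0.88 ± 0.12, limma adjusted p = 2.76e-05). Both Tapbp calls held in every fit without 1 library of the comparison, though that after withdrawal was not called with its experiment fitted alone (limma adjusted p = 0.0773). No difference between the treatments was called (0.19 ± 0.16, adjusted p = 0.608). Tapbp overlaps Zbtb22 and the antisense gene Gm19412, and the strand setting of the counting is unknown.

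The transporter genes had few reads. Tap1 (ENSMUSG00000037321.17, chr17:34187553-34197225) was at 0.131, 0.155 and 0.277 RPKM in the EGFR control libraries and at 0.107, 0.327 and 0.161 with the inhibitor, overlapping groups of 40 and 34 reads in all. With HBEGF it was at 0.266 and 0.118 RPKM (20 and 7 reads), and after withdrawal at 1.17 and 0.349 (74 and 17 reads). Both withdrawal libraries were higher, and the difference in means rested largely on replicate 1.

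Tap2 (ENSMUSG00000024339.12, chr17:34203527-34216321) was at 0.0371, 0.0469 and 0.0475 RPKM in the EGFR control (12 reads in all) and at 0.161, 0.104 and 0.0542 with the inhibitor (24 reads). HBEGF libraries had 0.0301 and 0.128 RPKM (3 and 10 reads) and withdrawal libraries 0.227 and 0.217 (19 and 14 reads). Neither pair of groups overlapped, at counts where a few reads move the value. Gm20496 and Gm15821 lie over Tap2 on the opposite strand, so its reads may mix with theirs.

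A fit of recovered reads with limma's voom weights, with genes of at least 10 reads in at least 2 libraries, was added after the data had been seen, and it included Tap1, Tap2 and Psmb9 but not Psmb8. In it, withdrawal raised Tap1 by 1.84 ± 0.62 on the log2 scale (adjusted p = 0.0187) and Tap2 by 1.82 ± 0.65 (adjusted p = 0.0264), where 16.6% of 18013 genes were higher and 21.7% lower. Without withdrawal replicate 1, the Tap1 change was 0.89 ± 0.73 (adjusted p = 0.376) and that of Tap2 was 1.80 ± 0.77 (adjusted p = 0.0736). Without replicate 2 they were 2.60 ± 0.56 (adjusted p = 0.000688) and 1.85 ± 0.72 (adjusted p = 0.0508). The EGFR inhibitor moved neither past the threshold (Tap1 -0.02 ± 0.62, adjusted p = 0.980, and Tap2 1.08 ± 0.64, adjusted p = 0.171). In the same fit 8441 of the 18013 genes were called, higher or lower, with the inhibitor.

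Psmb8 (ENSMUSG00000024338.15, chr17:34197721-34201454) and Psmb9 (ENSMUSG00000096727.3, chr17:34181987-34187764) encode catalytic subunits that replace constitutive ones when interferon induces the immunoproteasome. Psmb8 had 0 to 9 reads per library, with a highest value of 0.270 RPKM, and was at 0 in 5 libraries, where 3 reads would have been 0.102 to 0.175 RPKM. After withdrawal it was at 0.123 and 0.266 RPKM (3 and 5 reads), against 0.0344 and 0 with HBEGF (1 and 0 reads). These groups did not overlap, at counts where a few reads move the value. With the EGFR inhibitor and its control the groups overlapped (9 and 7 reads in all). Psmb8 also overlaps the antisense gene Gm20496. Psmb9 had 0 to 28 reads per library and was at 0 in 2 of them.

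One library stood out for Psmb9. Its levels after HBEGF withdrawal were 0.741 RPKM in replicate 1 (28 reads) and 0.0688 in replicate 2 (2 reads), against 0.0223 and 0.0567 with HBEGF (1 and 2 reads). Replicate 2 of the EGFR inhibitor was next, at 0.432 RPKM (15 reads), while the others of its group had 0.0595 and 0.0300. In the added fit of reads, the withdrawal change was 2.59 ± 1.17 (limma adjusted p = 0.0806), and without replicate 1 it was 0.86 ± 1.48 (adjusted p = 0.698). Tap1 and Psmb9 lie head to head on opposite strands and overlap, so their reads cannot be fully told apart without strand.

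Of the 11 other subunits of the proteasome's 20S core, 0 were higher and 9 lower in each of the 2 treatments, led by Psma1 (3.62 ± 0.380 against 6.04 ± 0.169 RPKM) and Psma7 (15.2 ± 1.35 against 25.5 ± 0.322 RPKM) with the inhibitor, and by Psmb1 (1.36 ± 0.169 against 2.83 ± 0.470 RPKM) and Psma7 (13.6 ± 0.923 against 28.5 ± 5.05 RPKM) after withdrawal. Their median changes were -0.36 and -0.52, close to those of all well-expressed genes, and under median-of-ratios scaling 8 and 6 of 11 were lower. Of the constitutive catalytic subunits, Psmb6 and Psmb7 were lower in both treatments and Psmb5 in neither, with 1 and 0 of 3 lower under that scaling. Among the other inducible subunits, the activator gene Psme2 rose with the inhibitor (1.56 ± 0.0359 against 0.974 ± 0.173 RPKM, limma adjusted p = 0.0441), and Psme1 and the third immunoproteasome subunit Psmb10 did not pass in either treatment.

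Of 8 tested genes of peptide trimming and loading, 0 were higher and 5 lower with the inhibitor, and 1 was higher and 6 lower after withdrawal. The chaperone gene Canx, which holds new heavy chains, fell from 26.2 ± 2.06 to 18.9 ± 0.248 RPKM with the inhibitor and from 28.5 ± 0.194 to 15.9 ± 1.68 after withdrawal. The peptidase gene Tpp2 fell from 1.65 ± 0.0268 to 1.01 ± 0.119 and from 1.81 ± 0.0492 to 1.01 ± 0.187 RPKM. Lnpep, an aminopeptidase of endosomes, rose after withdrawal (2.71 ± 0.335 against 1.85 ± 0.0462 RPKM). The median changes of the list, -0.37 and -0.54, were near those of well-expressed genes, and 1 higher and 5 lower were called in each treatment under median-of-ratios scaling.

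**Figure D3:**
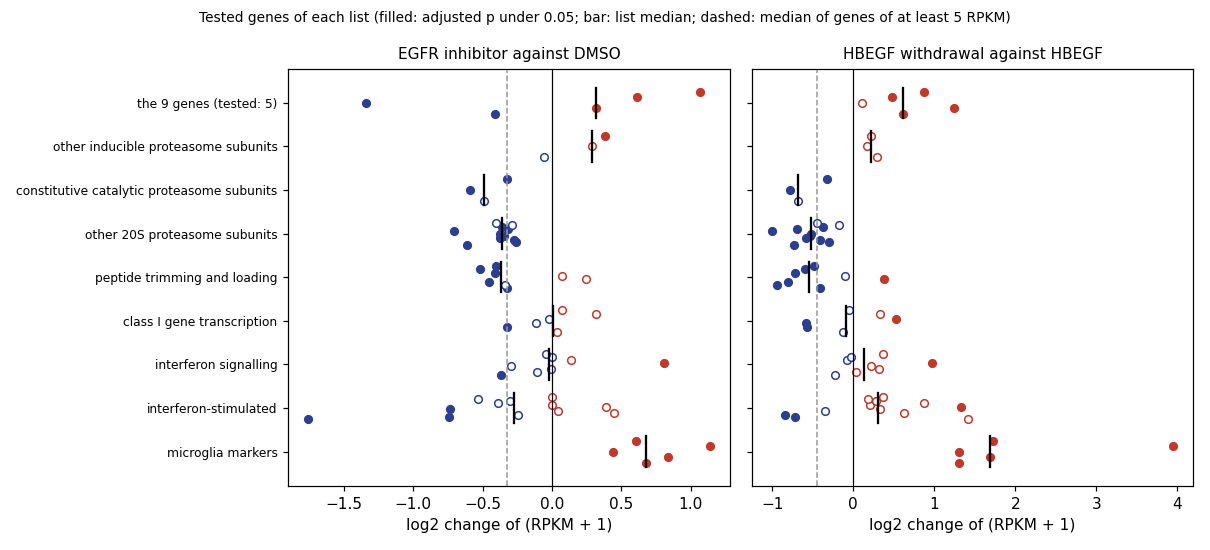
Log2 change of RPKM + 1 for each tested gene of 9 lists, with the EGFR inhibitor (left) and after HBEGF withdrawal (right). Points are red above 0 and blue below, filled where the adjusted p was under 0.05, bars are list medians, and the dashed lines at -0.33 and -0.45 are the medians of well-expressed genes. Proteasome core and loading genes lie around the dashed lines, and Tapbp, Irf1 and H2-D1 to the right of 0 in both panels.

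Irf1 (ENSMUSG00000018899.16, chr11:53770014-53778374), the interferon-responsive activator of several of these genes, was at 0.473, 0.449 and 0.436 RPKM in the EGFR control libraries and at 1.07, 1.31 and 1.29 with the inhibitor. The control libraries were tightly grouped and all below the treated ones. The rise was 2.70-fold (log2 change 0.61 ± 0.10, limma adjusted p = 0.000142), called in 6 of 6 fits without 1 library of the comparison. With HBEGF the gene was at 0.676 and 0.587 RPKM, and after withdrawal at 1.06 and 1.497.

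That 2.02-fold rise (log2 change 0.48 ± 0.13, limma adjusted p = 0.00751) was lost without HBEGF replicate 2 (adjusted p = 0.0575) or withdrawal replicate 2 (adjusted p = 0.115). No difference between the treatments was called (0.14 ± 0.16, adjusted p = 0.757). Irf1 overlaps the predicted gene Gm17334 on the opposite strand, with which its reads may mix.

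Of 8 tested genes of interferon signalling, 1 was higher and 1 lower with the inhibitor, and 1 was higher after withdrawal. The higher gene was Irf9, a subunit of the type I interferon-activated complex, at 2.46 ± 0.303 against 0.973 ± 0.171 RPKM with the inhibitor and 3.32 ± 0.259 against 1.23 ± 0.485 after withdrawal. Ifnar1, a chain of the type I receptor, fell with the inhibitor (2.74 ± 0.491 against 3.80 ± 0.147 RPKM). Under median-of-ratios scaling 4 of 8 were higher after withdrawal. The interferon genes Ifnb1 and Ifng were at 0 in all 25 libraries.

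Of 12 tested interferon-stimulated genes, 0 were higher and 3 lower with the inhibitor, a share near the 22.2% of all tested genes that were lower, with a median change of -0.27. Among the 3 were the guanylate-binding Gbp3 (log2 change -0.74, down to 0.197 ± 0.0744 RPKM) and the membrane protein gene Ifitm3 (15.4 ± 1.39 against 26.4 ± 3.78 RPKM). After withdrawal 1 was higher and 2 lower, with the GTPase gene Igtp rising (2.26 ± 0.497 against 0.294 ± 0.127 RPKM) and Gbp7 falling (0.425 ± 0.0228 against 1.56 ± 0.0701 RPKM). For Igtp, too, the withdrawal libraries were enough by themselves to pass the filter. Under median-of-ratios scaling 3 were higher and 2 lower after withdrawal. Of 6 NF-kB pathway genes, none was called with the inhibitor, and after withdrawal the NF-kB subunit gene Rela was higher and the kinase gene Chuk lower, the latter not under that scaling.

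Genes that transcribe class I loci were mixed. Of 6 tested, 0 were higher and 1 lower with the inhibitor, and 1 was higher and 2 lower after withdrawal. Nfya, a subunit of the NF-Y factor of class I promoters, fell in both (2.05 ± 0.214 against 2.82 ± 0.279 RPKM, and 1.46 ± 0.0652 against 2.67 ± 0.268), and Rfx5, of the RFX complex, rose after withdrawal (2.01 ± 0.648 against 1.07 ± 0.0996 RPKM). Nlrc5, the class I transactivator, was below the filter and is named here after its values had been seen. It had 9, 1 and 12 reads in the EGFR control libraries and 21, 42 and 19 with the inhibitor, and 9 and 9 reads with HBEGF against 34 and 28 without. The groups did not overlap in either pair, where 21.6% and 19.8% of all tested genes lay higher without overlap. The added fit of reads gave changes of 2.44 ± 0.58 (limma adjusted p = 0.000964) and 2.00 ± 0.60 (adjusted p = 0.00886). That fit called 8441 of its 18013 genes, higher or lower, with the inhibitor. After withdrawal it called 16.6% higher and 21.7% lower. Nlrc5 reached at most 0.0753 RPKM in any library, so these values are near the floor.

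The P53 inhibitor changed none of the 5 tested genes by limma, where 0.181% of all tested genes were called. With 2 of the 5 under an unadjusted p of 0.05 and 0 called by voom, the nearest was H2-D1. Its levels were 4.39, 4.34 and 3.78 RPKM in the control and 2.56, 2.96 and 3.17 with the inhibitor. The groups did not overlap, and the log2 change was -0.41 ± 0.10 (limma adjusted p = 0.122). Tapbp was at 0.674, 0.857 and 0.903 against 0.585, 0.475 and 0.466 RPKM (log2 change -0.26 ± 0.10, limma adjusted p = 0.415), and H2-K1 at 13.6, 14.8 and 14.7 against 11.99, 10.5 and 9.01 RPKM (-0.43 ± 0.26, adjusted p = 0.748). Thus 3 of the 5 genes lay lower with the inhibitor without overlap, where 20.3% of all tested genes did not overlap in one direction or the other.

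One control library of this experiment was high for several of the genes. Replicate 2 of the P53 control had 26.6 RPKM of B2m, against 17.7 and 19.4 in the others, 0.847 RPKM of Irf1 against 0.395 and 0.583, and 0.395 RPKM of Tap1 against 0.114 and 0.263. Summed over 30 interferon-stimulated genes it had 95.3 RPKM, against 49.7 and 51.5 in the other controls and 31.4 to 44.8 with the inhibitor. Without it, the B2m change went from -0.18 to -0.02 and that of Irf1 from -0.06 to 0.04, and still none of the 5 was called.

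During culture B2m rose and the other tested genes did not pass. B2m was at 14.5, 14.2 and 9.89 RPKM on day 2, at 20.01, 18.1 and 15.7 on day 7 and at 27.2, 22.9 and 22.6 on day 14. No 2 days overlapped, and the comparisons between days share libraries. From day 2 to day 14 the rise was 1.88-fold (log2 change 0.88 ± 0.15, limma adjusted p = 0.000372), which made 1 higher of the 5 tested genes (5.55% of all tested genes were higher and 17.6% lower, and 8.32% higher and 24.7% lower without overlap), and the call held in 6 of 6 fits without 1 library of the comparison.

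The step from day 2 to day 7 also gave 1 higher of 5, B2m (log2 change 0.46 ± 0.15, limma adjusted p = 0.0445), where 4.12% of tested genes were higher and 9.59% lower (9.6% and 17.9% without overlap). This call was lost in 4 of 6 fits without 1 of its own libraries and in 13 of 19 without another library, with adjusted p up to 0.198. From day 7 to day 14, 0 of 5 were called by limma and 0 by voom (2 of 5 under an unadjusted p of 0.05), where 0.137% of all tested genes were, and 13.4% did not overlap. B2m changed by 0.41 ± 0.15 in that step (adjusted p = 0.308).

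H2-K1 was at 7.45, 9.88 and 8.57 RPKM on day 2, at 17.5, 17.9 and 10.6 on day 7 and at 11.4, 18.7 and 14.0 on day 14. Both later days were above day 2 without overlap, but the log2 changes of 0.73 ± 0.26 and 0.69 ± 0.26 missed the threshold (limma adjusted p = 0.0717 and 0.0675). Under median-of-ratios scaling the change to day 14 was called for H2-K1 (0.86) and for Tapbp (0.32), where 1195 of 13850 genes were higher and 1160 lower. H2-D1 was at 3.31, 3.01 and 2.86 RPKM on day 2, at 3.58, 3.67 and 3.40 on day 7 and at 2.42, 2.39 and 2.60 on day 14. Day 7 lay above day 2 and day 14 below both, without overlap, and neither step was called (0.16 ± 0.10, limma adjusted p = 0.325, and -0.39 ± 0.10, adjusted p = 0.157).

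Irf1 stayed between 0.382 and 0.644 RPKM on all 3 days. Tapbp was at 0.397 to 0.662 RPKM on day 2, 0.528 to 1.06 on day 7 and 0.716 to 0.927 on day 14. For Tapbp, day 14 lay above day 2 without overlap, though the change was not called. Between these days, 3 of the 5 tested genes lay higher without overlap (H2-K1, B2m and Tapbp) and 1 lower (H2-D1). Of all tested genes, 8.32% lay higher and 24.7% lower without overlap. Tap1 had 7 to 38 reads on day 2, 3 to 20 on day 7 and 24 to 32 on day 14. The 7 MHC class II genes, which present peptides from outside the cell, were too low to test: H2-DMa reached 0.897 RPKM, H2-Ab1 0.349 and Cd74 0.0730 at most.

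Over the 9 group means, H2-D1 ran from 8.47 ± 0.0995 RPKM after withdrawal and 5.53 ± 0.495 with the EGFR inhibitor, which did not overlap, down to 2.47 ± 0.112 on day 14. Day 2, HBEGF, P53 inhibitor and day 14 followed each other with overlapping libraries. H2-K1 ran from 15.3 ± 4.12 on day 7 to 4.88 ± 0.983 with the EGFR inhibitor, and every pair of neighbours in that order overlapped. For B2m the order began with day 14 and ended with day 2, and only EGFR control and HBEGF, as neighbours, did not overlap.

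Tapbp and Irf1 had the EGFR inhibitor and withdrawal groups on top, overlapping each other and clear of the other 7 groups, of which the highest Tapbp library was replicate 3 of day 7 at 1.06 RPKM. As a description over 9 group means of log2(RPKM + 1), Tapbp and Irf1 correlated at r = 0.97, H2-D1 with Tapbp and Irf1 at 0.82 each, and H2-K1 with H2-D1 at -0.42, Tapbp at -0.62 and Irf1 at -0.74. B2m followed H2-K1 (0.65) more than H2-D1 (0.08). Tapbp and Irf1 passed the filter through the EGFR inhibitor and withdrawal groups, so a high r between them was favoured by the filter. It is no support for a shared response. The groups share depth and library chemistry.

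By the same measure, the genes most like H2-D1 among 1600 well-expressed candidates were Zfp36l1 (r = 0.94), Zfand5 (0.93), Lars2 (0.93), Wbp2 (0.92) and Mir6236 (0.90). They were picked for likeness to H2-D1, so high values in these treatments follow from the choice. Zfp36l1, which encodes an RNA-decay protein, had 56.0 RPKM after withdrawal and 42.2 with the EGFR inhibitor, against 16.3 to 32.6 in the other 7 groups. Lars2 had 13.3 and 11.2 RPKM in the same order, against 3.17 to 9.42 elsewhere. Mir6236 had 25014 and 22621 RPKM, against 7779 to 17030 elsewhere. The part of library composition in this likeness was not tested.

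Markers of microglia, which present antigen in the brain, moved with the same treatments. Lyz2 was at 2.54 against 0.549 RPKM with the inhibitor and at 16.9 against 0.0820 after withdrawal (limma adjusted p = 0.00172 and 1.54e-07). Of 18 markers 5 passed the filter and were called higher in each treatment, but Tyrobp, C1qc and Fcer1g passed it only through libraries of these treatments, so this count is no support. The sum of the 18 was 2.23 to 2.77 RPKM in the EGFR control and 7.21 to 11.7 with the inhibitor, 1.32 to 1.92 with HBEGF and 22.4 and 40.9 after withdrawal (replicates 1 and 2), and 1.54 to 4.95 in the other 5 groups. Lyz2, with its mean of 16.9 RPKM, made up a large part of the sum after withdrawal. Of the defining markers, Tmem119 had no read in any library, and Cx3cr1 and P2ry12 had at most 5 and 11 reads. Ptprc, the leukocyte surface phosphatase, had 13 and 15 reads after withdrawal against 1 and 1 with HBEGF, and 6, 5 and 7 with the inhibitor against 0, 1 and 2.

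Of the 2 withdrawal libraries, replicate 1 had the lower marker sum. It was higher than replicate 2 for 6 of the 9 genes (H2-K1, B2m, Tap1, Tap2, Tapbp and Psmb9) and lower for 3 (H2-D1, Psmb8 and Irf1), some by little. The order of 2 libraries cannot show whether the genes follow the markers, and this was not tested. Sums of pericyte markers (12.96 to 19.5 against 4.11 to 5.10 RPKM) and oligodendrocyte markers (26.8 to 29.3 against 8.65 to 17.6) were also higher after withdrawal, and neuron markers were higher with the inhibitor (7.73 to 8.96 against 3.23 to 3.34).

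Markers of oligodendrocyte precursors were mixed: of 6 tested, 1 was higher and 3 lower with the inhibitor, and 0 were higher and 3 lower after withdrawal. The sum of the 7 listed went from 323 to 419 RPKM in the EGFR control to 114 to 138 with the inhibitor, and from 391 to 418 with HBEGF to 93.0 to 99.1 after withdrawal, while that of the astrocyte markers went from 151 to 185 to 419 to 438 RPKM and from 149 to 156 to 335 to 354. Most of the precursor sum came from the transcription factor genes Olig1 and Olig2, while the defining receptor gene Pdgfra was at 2.10 RPKM with the inhibitor against 1.497 in its control (limma adjusted p = 0.150) and at 1.31 after withdrawal against 2.84 with HBEGF (adjusted p = 0.00685). The part of other cells in the changes of the 9 genes was not tested.

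**Figure D4:**
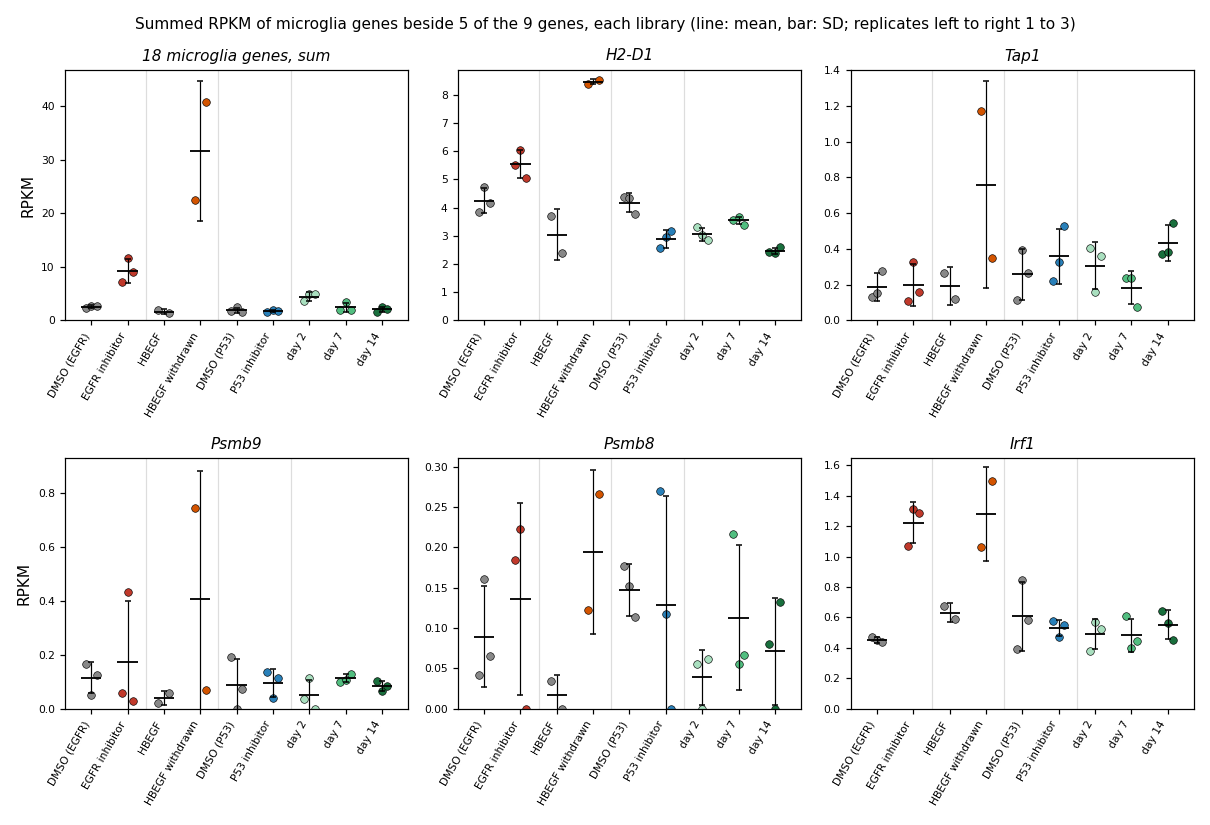
Summed RPKM of 18 microglia markers beside the RPKM of H2-D1, Tap1, Psmb9, Psmb8 and Irf1 in each library, with replicates 1 to 3 from left to right, lines for means and bars for SD (n = 2 or 3, cut off at 0). After HBEGF withdrawal the marker sum is higher in replicate 2 (40.9 against 22.4), as are Irf1 (1.497 against 1.06) and Psmb8 (0.266 against 0.123), while Tap1 and Psmb9 are higher in replicate 1 and H2-D1 is at 8.40 and 8.54 RPKM.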

How the data were processed

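RNA of 25 libraries was sequenced, and per the submitters' processing notes the authors used STAR, HTSeq, edgeR and limma with GRCm38. Versions, annotation release and strand setting: not given in the sources used here. The deposited table gives RPKM. RPKM times gene span summed to 999076 to 1002555 per library (377046 to 519420 by exons). The GENCODE M21 span was therefore used as the gene length. It was found for 53643 genes (98.6%). Reads recovered from it were whole for 99.0 to 99.3% of values up to 20 reads (within 0.1). No 2 libraries were identical.

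Genes with at least 1 RPKM in at least 2 libraries (13850) entered 1 limma fit of log2(RPKM + 1) with a mean per group (trend and robust, 16 residual degrees of freedom, two-sided). This scale understates folds of low genes. Folds are ratios of mean RPKM. The 9 genes were named throughout, and of other lists up to 2 called genes per direction and comparison by smallest p. Candidates for likeness to H2-D1 excluded symbols of predicted genes, clones and pseudogenes. The members and lists were chosen with earlier results of these data known.

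Alternatives were no filter, a pseudocount of 0.1, median-of-ratios scaling, quantile scaling, a filter of 5 RPKM, each experiment alone, a replicate block, voom on recovered reads and leaving out each library. Added after the data were seen were voom with a filter of 10 reads, also without each withdrawal library, and scaling without mitochondrial genes. Same-numbered libraries correlated over 0.1 in all 3 pairs only between days 2 and 14 (0.15 to 0.28), so numbers were not taken to pair the samples. The code was tested on simulated data. Fits ran in limma 3.58.1 under R 4.3.3, and tables were made in pandas 2.3.3 with numpy 2.4.6 under Python 3.11.15.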

Additional observations from a re-analysis of the deposited data

Results flagged for a closer look

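The response of H2-D1 differed between the treatments that lower EGF receptor signalling: its log2 change with the EGFR inhibitor was 0.93 ± 0.16 lower than after HBEGF withdrawal (-0.93, limma adjusted p = 0.00565). It rose in 3 of 3 inhibitor libraries and 2 of 2 withdrawal libraries compared with every control library.

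For B2m the same difference was -1.02 ± 0.23 (limma adjusted p = 0.0313), with 3 of 3 inhibitor libraries below and 2 of 2 withdrawal libraries above their controls. It was lost in 8 of 10 fits without 1 library and with the replicate number as a block (adjusted p = 0.0518). The experiments differ in the agent and in its day of addition, which cannot be told apart from the treatment.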

How the results depend on the processing

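The counts of called genes among the 9 moved as follows. With a filter of 5 RPKM, which leaves 3 of them to test, 3 were called with the EGFR inhibitor and 2 after HBEGF withdrawal. Fitted alone, the withdrawal experiment gave 0 of 5. The 4 genes called with all libraries fitted together had limma adjusted p from 0.0773 to 0.162 there. It gave 0 of all 13850 genes (3926 at an unadjusted p under 0.05, against 4595 called by voom over all libraries). For day 7 against day 2, its experiment fitted alone gave 0 of 5. Day 7 against day 2 gave 0 with no filter and 2 with either voom fit. Day 14 against day 2 gave 2 with a pseudocount of 0.1 and with either voom fit, and 3 with median-of-ratios scaling, quantile normalization or scaling without mitochondrial genes. Calls over all genes moved as well. For day 14 against day 2, median-of-ratios scaling called 1195 of 13850 genes higher and 1160 lower (769 and 2439 as reported). Voom with the read filter called 2964 and 5083 of 18013 genes for days 7 and 14 against day 2. Leaving out each library of a comparison gave 3 to 5 with the EGFR inhibitor, 2 to 3 after withdrawal, 0 to 2 for day 7 against day 2, 1 to 2 for day 14 against day 2 and 1 to 3 for the difference between the treatments. With no filter the B2m fall under the inhibitor was not called (adjusted p = 0.0576), nor by quantile normalization (adjusted p = 0.447) or without mitochondrial genes (adjusted p = 0.0902).

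With the replicate number as a block, the difference between the treatments was called for 1 of the 9 genes, H2-D1, and no other call among them changed. The block gave 6 calls over all genes for the P53 inhibitor, 7 for day 14 against day 7 and 63 for the difference between the treatments, against 25, 19 and 253.

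Direction turned for changes that were not called. The Irf1 change from day 2 to day 7, -0.01, was 0.019 by median-of-ratios, 0.025 by quantile, 0.11 and 0.12 by the voom fits, 0.023 without mitochondrial genes and -0.068 to 0.032 without 1 library. The H2-K1 change from day 7 to day 14, -0.05, was 0.055 by median-of-ratios, 0.057 by quantile, 0.0074 without mitochondrial genes and -0.28 to 0.11 without 1 library. The H2-K1 change after withdrawal was -0.42 to 0.63 without 1 library and -0.45 by voom with the read filter without withdrawal replicate 1. Without 1 library, the ranges were -0.16 to 0.043 for Irf1 with the P53 inhibitor, -0.069 to 0.15 for Tapbp from day 7 to day 14 and -0.0024 to 0.27 for the Irf1 difference between the treatments. The cause was not tested.

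Over all genes, a filter of 5 RPKM gave 2069 calls for the EGFR inhibitor, 1882 for withdrawal, 8 for the P53 inhibitor, 825 and 1267 for days 7 and 14 against day 2 and 100 for the difference. Voom with the read filter gave 8441, 6895, 120, 2964, 5083 and 683 in that order, and 114 for day 14 against day 7. The plain voom fit gave 72 for the P53 inhibitor, 47 for day 14 against day 7 and 384 for the difference. With no filter, 44 were called for day 14 against day 7 and 696 for the difference. Fitted alone, days 7 and 14 against day 2 gave 190 and 1287, and day 14 against day 7 gave 0 (938 unadjusted). Median-of-ratios scaling split the calls into 2752 higher and 2635 lower for the inhibitor (2261 and 3076 as reported), 2146 and 1988 for withdrawal (1390 and 3121), 1195 and 1160 for day 14 against day 2 (769 and 2439), and 92 and 124 for the difference (176 and 77). Depth limits Tap1, Tap2, Psmb8 and Psmb9, whose highest library had 74, 19, 9 and 28 reads.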
